A study of Brassica oleracea with 8 samples.

Results

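A set of 126 genes of Brassica oleracea was nearly without reads in young shoots of kale while being read in every library of cabbage and of TO1000. The members were chosen by their raw read counts. A gene whose identifier starts with Bo had at most 2 counts in each of the 3 kale libraries and at least 10 counts in each of the 5 cabbage and TO1000 libraries. Of 59225 such identifiers among 60586 annotated features, 18715 held at least 10 counts in every cabbage and TO1000 library, and the 126 members were 0.673% of these 18715 genes, called counted genes from here on. The difference between kale and the other morphotypes chose the members, so it is given as a description with no test.

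The RNA came from the upper stem with its immature leaves and its apical and lateral meristems, taken 24 days after sowing from untreated plants of 3 morphotypes, each grown as a single accession. Kale, a leafy crop that forms no head, is labelled var. viridis in the sample labels and described as var. acephala Red Winter, with lobed leaves, in the study's text. Cabbage, which forms a head of overlapping leaves, is labelled var. sabadua there and var. capitata in the text, and TO1000 is a rapid-cycling doubled haploid line of var. alboglabra. Each library pooled 8 plants, and kale had 3 libraries, cabbage 2 and TO1000 3. A single accession stands for each crop, and all reads, those of kale and cabbage included, were mapped to the genome of TO1000.

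Brassica oleracea descends from an ancestor whose whole genome was multiplied, and many of its genes persist as several diverged copies, some of which have fallen silent or been lost. Cultivated lines of the species differ in which copies they carry as well as in when and where they express them. A gene can therefore be without reads in one line because it is not transcribed there, because it is missing, or because its sequence has diverged too far from the mapping genome for reads to align. These possibilities were not tested for any member, and reads from bulk tissue cannot tell fewer expressing cells from less RNA per cell. The files give the members as identifiers only, and none of the 126 matched the gene table at hand, so they are described by identifier, level and position without gene names or functions.

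Counts on genes ranged between 3016197 and 7539991 per library, and cabbage replicate 1 was the shallowest. Every pair of replicates differed by more than counting noise, with a chi-square of 5.74 to 17.6 per gene, so every library was kept as a separate replicate. The genes ANT, a regulator of organ growth in Arabidopsis, and GRF3, a growth-regulating factor of young leaves, were read in all 8 libraries, ANT at 32 to 100 counts in kale, 61 and 112 in cabbage and 179 to 232 in TO1000. GRF3 held 23 to 33 counts in kale, 34 and 70 in cabbage and 49 to 81 in TO1000, so both growth regulators were read in all 3 morphotypes. Of a pair of genes for chaperonin subunits that fold RuBisCO, Bo04491s010 held 11 to 39 counts in kale, 32 and 86 in cabbage and 61 to 76 in TO1000, and Bo6g034560 held 36 to 76 in kale, 3 and 10 in cabbage and 3 to 7 in TO1000. The sources describe replicates with separate adapters on a single lane, of which each morphotype took a part, without saying outright that all morphotypes shared it, and its part in the results was not tested.

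Across all 126 members the 3 kale libraries held 204 counts, with 67, 63 and 74 counts in replicates 1, 2 and 3. The same genes held 3377 and 7143 counts in the cabbage libraries and 8012, 8917 and 7870 in the TO1000 libraries. Expressed as CPM, read counts scaled to a common library total with factors from the trimmed mean of M-values, the members summed to 9.21, 11.3 and 17.7 CPM in kale, 1222 and 1197 CPM in cabbage and 1261, 1218 and 1161 CPM in TO1000. The summed levels in cabbage and TO1000 lay close together, and kale lay far below both in every library, as the rule required.

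Of the members, 37 had 0 counts in all 3 kale libraries together. Another 28 had a single count, 27 had 2, 21 had 3, and 13 had between 4 and 6. A sum of 0 allows a kale level of up to 0.176 CPM when 3 counts over the group are taken as the upper limit. Against that limit, the 37 genes were at least 14.3-fold to 143.7-fold lower in kale than in cabbage, with a median bound of 35.8, and at least 8.88-fold to 175.2-fold lower in kale than in TO1000, with a median bound of 32.8. For the 89 members with kale counts the ratio of cabbage to kale ran between 8.97 and 418 with a median of 70.2, and that of TO1000 to kale between 6.50 and 754 with a median of 64.1. Limits and 95% intervals of these ratios cover counting error only, because they rest on counts pooled over replicates and leave out the spread between libraries. In addition, PCR copies were not marked by molecular identifiers, and RNA was extracted without DNase.

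**Figure D1:**
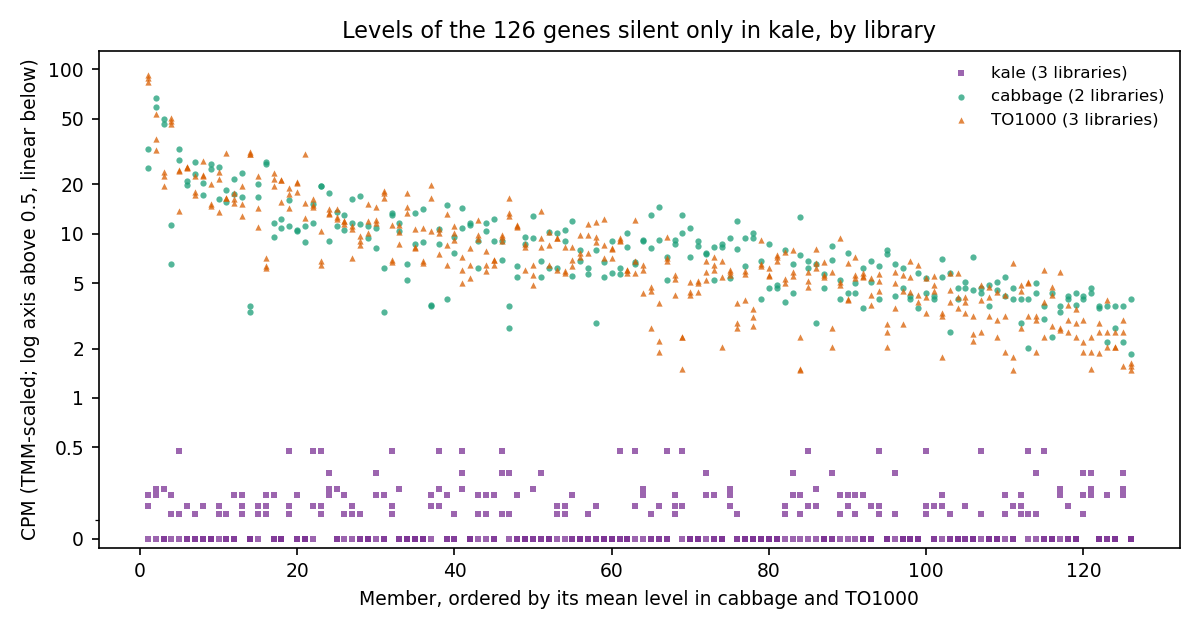
Level of each member in each library in CPM (vertical axis, logarithmic above 0.5 and linear below), with the 126 members ordered along the horizontal axis by their mean level in cabbage and TO1000. Squares are the 3 kale libraries, circles the 2 cabbage libraries and triangles the 3 TO1000 libraries; the kale points lie at or near 0 while the mean of the others falls to 2.24 CPM.

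The limit of 2 counts did not fall in a gap. Among the 18715 counted genes, the largest count in any kale library was 0 for 37 genes, 1 for 50 and 2 for 39, and then 3 for 27, 4 for 34 and 5 for 32 genes. The 203 genes whose largest kale count was 3 to 9 outnumbered the members, but over a wider range of counts. Each of those values held 22 to 34 genes. Just inside the kale limit stood Bo9g164350 with 2, 2 and 2 counts in kale, 30 and 86 in cabbage and 46, 44 and 34 in TO1000. Bo9g088210 had 2, 2 and 1 counts in kale, 49 and 54 in cabbage and 90, 97 and 90 in TO1000, and Bo7g055920 had 2, 1 and 2 in kale, 24 and 64 in cabbage and 68, 55 and 68 in TO1000. In these members the kale counts were few but present in every library.

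Just outside the kale limit, 27 genes had a largest kale count of 3. The 3 of them with the highest levels in cabbage and TO1000 are given here, so their high levels follow from that choice. Bo3g070280 had 2, 3 and 2 counts in kale, 238 and 615 in cabbage and 558, 445 and 447 in TO1000. Bo5g053500 had 3, 1 and 1 in kale, 165 and 293 in cabbage and 225, 287 and 226 in TO1000, and Bo1g071000 had 3, 0 and 1 in kale, 119 and 183 in cabbage and 265, 267 and 249 in TO1000. These 3 genes missed the limit by 1 count in 1 library. At the other limit the members Bo3g147740, Bo4g096840 and Bo9g052050 each reached 10 counts in the lowest of their cabbage and TO1000 libraries, with 10 to 22 counts in those libraries, and Bo3g147740 and Bo9g052050 had 0 counts in kale.

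**Figure D2:**
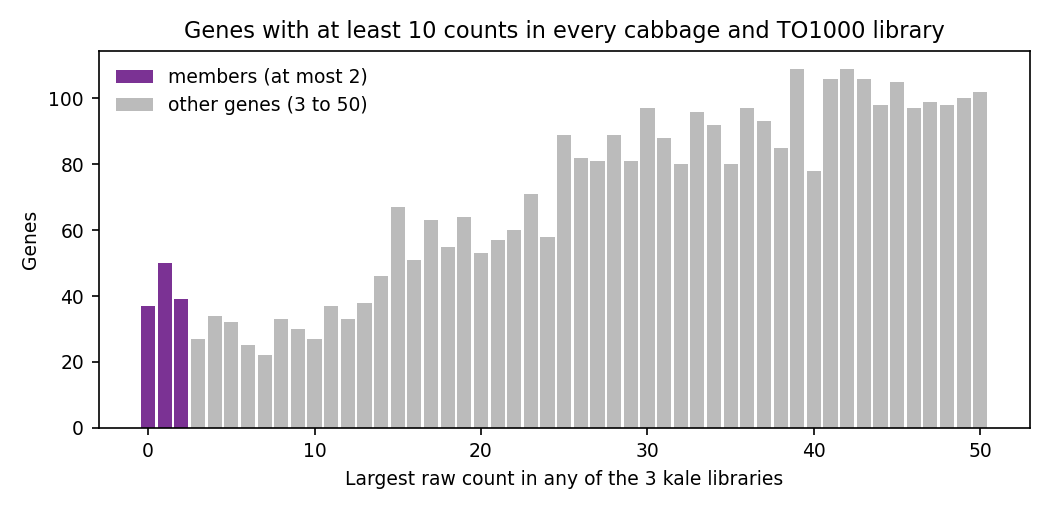
Number of genes (vertical axis) by the largest raw count in any of the 3 kale libraries (horizontal axis), among genes with at least 10 counts in every cabbage and TO1000 library. Coloured bars are the 126 members, at 37, 50 and 39 genes, and grey bars the genes with a largest count from 3; no empty range separates them.

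The members were moderately or weakly expressed where they were read. Their median level over cabbage and TO1000 was 7.40 CPM, with a range of 2.24 to 58.6 CPM, against a median of 16.3 CPM for all counted genes. Only 10 members exceeded 20 CPM, 25 lay between 10 and 20 CPM, and 91 lay at or below 10 CPM. The 10 highest members held 25.4% of the summed level. The median coefficient of variation between replicates, members against counted genes, was 0.160 against 0.135 in cabbage and 0.191 against 0.132 in TO1000, beside their lower level.

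The highest member was Bo4g173460 on chromosome 4. It had 0, 1 and 1 counts in kale, 69 and 195 in cabbage and 534, 648 and 628 in TO1000. Its level was 0.139 ± 0.124 CPM in kale (SD, n = 3), 28.8 ± 5.45 CPM in cabbage (SD, n = 2) and 88.4 ± 4.30 CPM in TO1000 (SD, n = 3). Every TO1000 library lay above both cabbage libraries, and the ratio of TO1000 to kale was 754 with a counting interval of 208 to 6228.

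The next highest members were Bo1g008570, Bo1g008800 and Bo1g008710, which lie on the same stretch of chromosome 1 described further on. Bo1g008570 had 2, 0 and 1 counts in kale, 184 and 352 in cabbage and 206, 390 and 256 in TO1000. Bo1g008800 had 2, 0 and 0 counts in kale, 129 and 300 in cabbage and 151, 143 and 153 in TO1000. Bo1g008710 had 1, 0 and 1 counts in kale, 18 and 67 in cabbage and 309, 372 and 316 in TO1000. Between cabbage and TO1000 the first of these genes differed by 0.60 on the log2 scale, under the fold limit given below for a call, whereas Bo1g008800 was higher and Bo1g008710 far lower in cabbage.

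Among the remaining high members, Bo4g084730 had 1, 0 and 2 counts in kale, 78 and 195 in cabbage and 87, 178 and 164 in TO1000. Bo9g009980 had 0, 1 and 0 in kale, 58 and 118 in cabbage and 162, 185 and 172 in TO1000. Bo5g048960 was the highest member with 0 counts in all kale libraries, beside 73 and 148 counts in cabbage and 127, 108 and 103 in TO1000. It was at least 143.7-fold lower in kale than in cabbage and at least 93.8-fold lower in kale than in TO1000. Bo7g055800, Bo4g192980 and Bo8g076840 completed the 10 highest, at 25.1, 18.8 and 21.0 CPM in cabbage and 19.3, 24.4 and 19.5 CPM in TO1000, with 1 or 2 counts over all kale libraries.

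The comparison of cabbage with TO1000 did not choose the members and was tested with edgeR's quasi-likelihood test with Benjamini-Hochberg adjustment over all genes and all 3 pairwise comparisons. Calls needed an adjusted p under 0.05 and a change of more than 1 log2 unit, up or down. Of the 126 members, all of which were tested, 13 were higher and 8 lower in cabbage than in TO1000, and 105 were not called. The called members were 16.7% of all members, beside 26.2% of the 28126 genes tested (11.5% higher and 14.8% lower in cabbage) and 17.4% of the 18715 counted genes (9.76% higher and 7.63% lower). The members' share was thus close to that of counted genes. Their median log2 fold change was 0.13, with a median absolute value of 0.46, beside 0.10 and 0.47 for counted genes. The lower count limit asked more of cabbage replicate 1, where 10 counts equal 3.62 CPM, than of the other 4 libraries, where they equal 1.37 to 1.68 CPM. P-values here measure the spread between libraries of pooled plants.

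The member with the lowest cabbage level relative to TO1000 was Bo7g105700, which had 0, 0 and 0 counts in kale, 10 and 20 in cabbage and 195, 224 and 212 in TO1000. Its log2 fold change of cabbage over TO1000 was -3.15 (SE 0.27, edgeR adjusted p = 6.93e-07). Its cabbage counts thus stood near the lower limit while its TO1000 level was 30.9 ± 0.368 CPM (SD, n = 3).

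Bo1g008710 (log2 fold change -2.38), Bo5g098830 (-2.22), Bo00613s120 (-2.08) and Bo1g016810 (-1.97) were also lower in cabbage. Bo5g098830 had 10 and 16 counts in cabbage and 81, 120 and 91 in TO1000. Bo00613s120 had 10 and 22 counts in cabbage and 66, 121 and 134 in TO1000. Bo1g016810 had 17 and 20 counts in cabbage and 116, 120 and 120 in TO1000. In all 4 genes the cabbage and TO1000 libraries did not overlap in CPM, and the same held for the highest member, Bo4g173460, at -1.60 (SE 0.21, edgeR adjusted p = 1.79e-05).

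In the other direction, Bo2g048060 had 28 and 78 counts in cabbage and 15, 11 and 16 in TO1000, a log2 fold change of 2.50 (SE 0.40, edgeR adjusted p = 0.00016). Bo01383s020 had 35 and 44 counts in cabbage and 15, 11 and 10 in TO1000 (log2 fold change 2.45). Bo1g009980 had 40 and 55 counts in cabbage and 24, 14 and 15 in TO1000 (log2 fold change 2.14). These 3 genes were weakly read in TO1000, at 1.78 to 2.63 CPM on average. Bo2g120890 had a higher level, with 73 and 164 counts in cabbage and 45, 45 and 43 in TO1000 (27.0 ± 0.749 CPM, SD, n = 2, against 6.53 ± 0.494 CPM, SD, n = 3), and a log2 fold change of 2.05.

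Of the 126 members, 102 lay within 1 log2 unit either way between cabbage and TO1000, a range that reaches up to a 2-fold difference. With the adjusted p alone and no fold limit, 18 members were higher and 12 lower in cabbage (23.8% called, beside 38.4% of all genes tested). The named members closest to equal lay near the middle of that range. Bo7g021720 had 1, 0 and 1 counts in kale, 29 and 78 in cabbage and 73, 87 and 81 in TO1000, or 11.8 ± 1.82 CPM in cabbage (SD, n = 2) and 11.8 ± 0.248 CPM in TO1000 (SD, n = 3). Bo1g057190 and Bo6g110480, both with 0 counts in kale, averaged 8.19 and 7.42 CPM in cabbage and 8.40 and 7.78 CPM in TO1000. A test against a 2-fold change in place of a fold threshold after the test left 4 members higher and 6 lower in cabbage (7.94%, beside 12.5% of all genes tested). With all libraries thinned to the shallowest the rule chose 135 genes, only 90 of them among the 126. Of these 135 genes, 8 were higher and 8 lower in cabbage (11.9%, beside 24.2% of all genes tested).

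**Figure D3:**
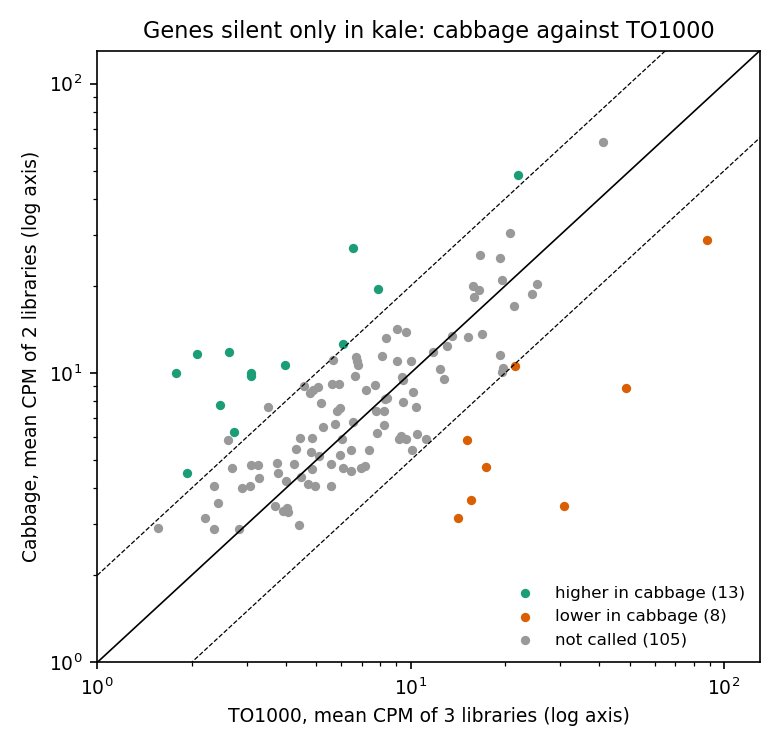
Mean level of each member in cabbage (vertical axis, mean CPM of 2 libraries) against TO1000 (horizontal axis, mean CPM of 3 libraries), both on log axes. The solid line marks equal levels and the dashed lines a 2-fold difference; the 13 members called higher in cabbage lie above, the 8 called lower lie below, and the 105 not called are grey.

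By their identifiers the members were spread over all 9 chromosomes and the unplaced scaffolds. Chromosome 9 held the most, 17 members, and chromosome 6 the fewest, 9 members. Relative to the counted genes of each chromosome, members numbered between 4.03 per 1000 on chromosome 3 and 7.74 per 1000 on chromosome 1. Scaffolds, the pieces of the genome not placed on a chromosome, held 12 members among only 469 counted genes, or 25.6 per 1000. They thus carried 9.52% of the members and 2.51% of the counted genes. By the same limits, 184 of 20023 genes (0.919%) were silent only in cabbage and 78 of 18296 (0.426%) only in TO1000, of which 11 and 4 lay on scaffolds. No test was made of these shares, and the lists differ in the number and depth of libraries and in that TO1000 is its own mapping genome.

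Few members were direct neighbours. Taking all Bo identifiers of a chromosome or scaffold in order, 4 members (3.17%) formed 2 runs of 2 with no other gene between them. Neighbours here and below are neighbours in that order. The numbering jumps in places, such as from Bo4g118570 to Bo4g119570, and identifiers on both sides of a jump were taken as neighbours. No run was longer. Genes silent only in cabbage likewise formed 2 runs, and those silent only in TO1000 formed 1. When uncounted genes were skipped, 8 members lay in 4 runs of 2.

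The first run was Bo4g027380 and Bo4g027390 on chromosome 4, both with 0 counts in every kale library. Bo4g027380 had 18 and 31 counts in cabbage and 112, 98 and 98 in TO1000, and was lower in cabbage (log2 fold change -1.40, SE 0.30, edgeR adjusted p = 0.00188). Bo4g027390 had 31 and 53 counts in cabbage and 194, 113 and 85 in TO1000, with a log2 fold change of -0.98 (SE 0.36) that fell just short of the fold limit, and it was called lower in cabbage in 10 of 18 alternative fits. On one side of this pair Bo4g027360 and Bo4g027370 held at most 1 count in any library. On the other side Bo4g027400 had 19, 18 and 17 counts in kale, 30 and 69 in cabbage and 43, 61 and 49 in TO1000, and Bo4g027410 had 120, 98 and 79 in kale, 29 and 56 in cabbage and 106, 107 and 86 in TO1000. The lack of kale reads thus ended at Bo4g027400.

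The second run was Bo01396s020 and Bo01396s030 on a scaffold, each with 1, 0 and 0 counts in kale. Bo01396s020 had 33 and 48 counts in cabbage and 24, 21 and 18 in TO1000, and Bo01396s030 had 36 and 49 in cabbage and 30, 33 and 18 in TO1000. Both were higher in cabbage, with log2 fold changes of 1.66 (SE 0.38) and 1.38 (SE 0.38) and edgeR adjusted p values of 0.00244 and 0.00816. Without cabbage replicate 1 the call of Bo01396s030 was lost (log2 fold change 1.06, edgeR adjusted p = 0.0987, against 0.00235 to 0.273 over all alternatives). The pairs of each run had like profiles over the libraries, and whether neighbouring genes are copies that share reads was not analysed here.

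Looser groups were more common than runs. Within 30 identifiers of each other lay 23 members (18.3%), in 9 groups of 2 and 1 group of 5. The same held for 52 of 184 genes silent only in cabbage (28.3%) and 6 of 78 silent only in TO1000 (7.69%). Such shares rise with the length of a list by itself, so they are not read as a difference between the lists. The number also moved with the count limit in the shallowest library. Without cabbage replicate 1 there were 186 members, a longer list, of which 54 had another within 30 identifiers. The number of members in runs was 8 without cabbage replicate 1 and 8 without kale replicate 1.

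The group of 5 lay on chromosome 1 between Bo1g008570 and Bo1g009980, a stretch of 43 identifiers in order. The numbering jumps within it from Bo1g008820 to Bo1g009820, and physical distances were not known. Its members were Bo1g008570, Bo1g008710, Bo1g008800, Bo1g008820 and Bo1g009980, and the first 3 are among the 4 highest of all members. Bo1g008820 had 2, 0 and 0 counts in kale, 26 and 76 in cabbage and 31, 47 and 38 in TO1000. The members did not move together between cabbage and TO1000: Bo1g008800 (log2 fold change 1.15) and Bo1g009980 (2.14) were higher in cabbage, Bo1g008710 (-2.38) was lower, and Bo1g008570 (0.60) and Bo1g008820 (0.99) were not called.

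The stretch was not silent as a whole in kale. Of its 38 other genes, 14 had at least 10 counts in every kale library and 4 had 0 counts in every library of the series. Of 21 tested, 7 were lower and 3 higher in kale than in TO1000, beside 13.5% lower and 14.2% higher among all genes tested. In the comparison with cabbage 12 were lower and 2 higher in kale, beside 11.1% lower and 14.7% higher among all genes tested. The 2 comparisons share the kale libraries. The stretch was picked for its members. Genes such as Bo1g009840, with 0 counts in kale, could pass the filter on low counts only through cabbage and TO1000. The shares lower in kale are therefore given as a description.

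Several genes of the stretch, picked after their values were seen, had very low but not silent kale levels. Bo1g008790, next to the member Bo1g008800, had 4, 0 and 0 counts in kale, 432 and 871 in cabbage and 257, 431 and 362 in TO1000. Bo1g009820 was the most strongly read, with 19, 3 and 0 counts in kale, 1640 and 2863 in cabbage and 1464, 1939 and 1793 in TO1000. The kale counts of these genes came mostly or only from replicate 1, the deepest library. Scaled for depth, kale replicates 1 to 3 held 2.61, 0.538 and 0 CPM of Bo1g009820 and 0.55, 0 and 0 CPM of Bo1g008790. The cause of this unevenness was not tested. Bo1g008670 kept 97, 68 and 55 counts in kale, against 352 and 773 in cabbage and 673, 927 and 746 in TO1000. Bo1g008620 went the other way, with 396, 263 and 251 counts in kale, 66 and 188 in cabbage and 78, 118 and 100 in TO1000, and was higher in kale than in TO1000 by 1.90 on the log2 scale (edgeR adjusted p = 7.38e-07).

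**Figure D4:**
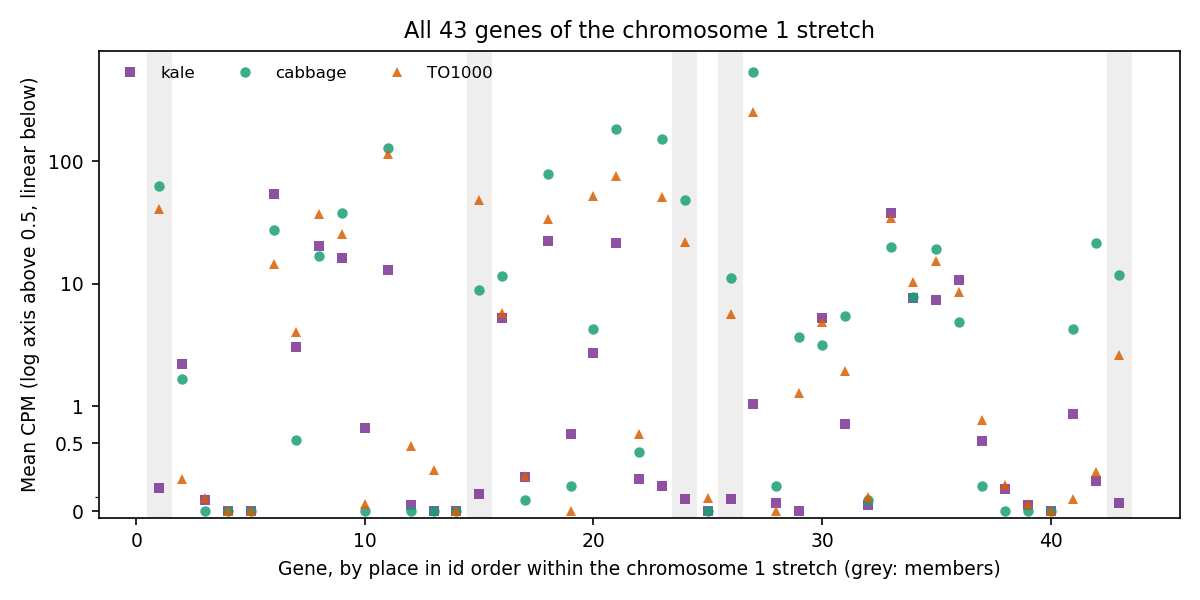
Mean level in CPM (vertical axis, logarithmic above 0.5 and linear below) of the 43 genes of the chromosome 1 stretch, in the order of their identifiers (horizontal axis). Squares are kale, circles cabbage and triangles TO1000, and grey bands mark the 5 members; genes with clear kale levels stand between members.

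Among genes directly beside members the shares called against kale were larger than among all genes tested, most so for lower levels in kale, and the differences between these shares were not tested. Of 236 identifiers next to a member, 97 were tested. These 97 included 7 (7.22%) with at most 2 counts in each kale library, beside 763 (2.73%) of the 28000 tested genes that were not members. Such genes could pass the filter on low counts only through cabbage and TO1000, so the shares lower in kale are given as a description. Of the 97, 24 (24.7%) were lower in kale than in TO1000 and 18 (18.6%) higher, beside 13.5% lower and 14.2% higher among all genes tested. In the comparison with cabbage, which shares the kale libraries, 28 (28.9%) were lower in kale and 15 (15.5%) higher, beside 11.1% lower and 14.7% higher among all genes tested. The median log2 fold change of these neighbours was -0.12 against TO1000 and -0.22 against cabbage, beside -0.00 and 0.06 for all genes tested. At a distance of 2 identifiers the shares lower in kale were 16.0% and 14.0%, and at 10 identifiers 7.84% and 10.8%, with 21.5% and 19.6% at 4 identifiers, so they did not fall evenly. Without the chromosome 1 stretch, 22 of 90 neighbours were lower in kale than in TO1000 and 24 lower than in cabbage. A test against a 2-fold change left 13 of the 97 neighbours lower in kale than in TO1000 (13.4%, beside 6.89% of all genes), and thinned libraries left 14 of 84 (16.7%, beside 12.1%). With no filter on low counts 212 neighbours were tested, and 13.2% were lower in kale than in TO1000, beside 8.95% of all genes, and 13.2% lower than in cabbage, beside 6.41%.

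Of the 97 tested neighbours, 7 also had at most 2 counts in each kale library and missed the set through counts under 10 in cabbage or TO1000 libraries. Genes this low in kale could pass the filter only through their cabbage and TO1000 counts, so nothing is read from their number. Bo7g059330, beside the member Bo7g059340, had 0 counts in kale, 7 and 33 in cabbage and 26, 21 and 26 in TO1000. Bo8g036630, beside Bo8g036620, had 0 counts in kale, 4 and 6 in cabbage and 26, 37 and 25 in TO1000. Bo6g067820, beside Bo6g067810, missed the set through the kale limit, with 3, 0 and 1 counts in kale, 31 and 58 in cabbage and 153, 199 and 169 in TO1000. Its neighbour and member Bo6g067810 had 0, 0 and 1 in kale, 32 and 57 in cabbage and 124, 157 and 159 in TO1000, so the pair had nearly the same profile. Other neighbours, 18 of the 97 against TO1000 and 15 against cabbage, were higher in kale. Bo2g041230, the study's candidate VTC5, lies beside the member Bo2g041240. It had 91, 111 and 74 counts in kale, 0 and 0 in cabbage and 1, 6 and 3 in TO1000. Bo7g108980, beside Bo7g108970, had 140, 92 and 74 counts in kale, 0 and 6 in cabbage and 1, 0 and 0 in TO1000. Both could pass the filter only through kale. All genes named here were picked after their values were seen.

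**Figure D5:**
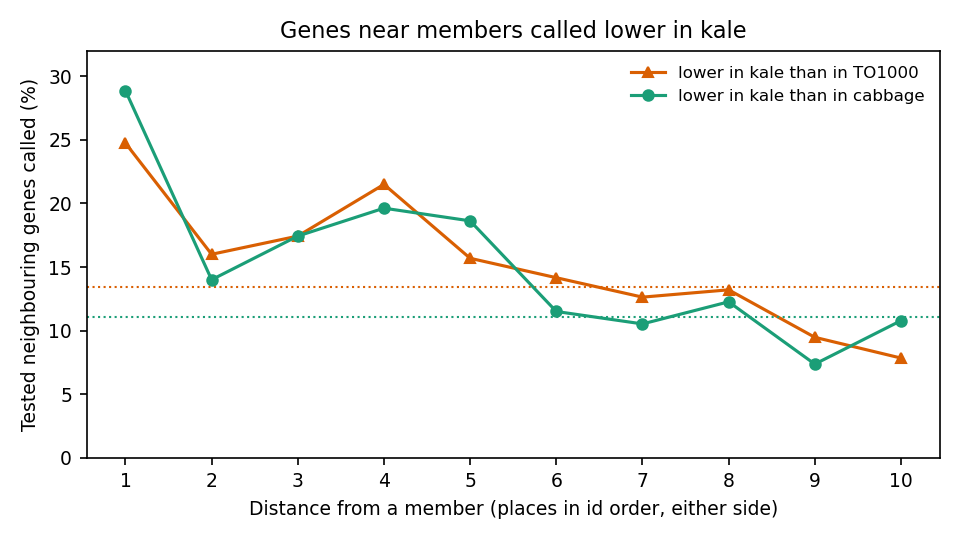
Percentage of tested genes called lower in kale (vertical axis) by distance from a member in places of identifier order, on either side (horizontal axis). Triangles give kale against TO1000 and circles kale against cabbage. Dotted lines of the same colours are the 13.5% and 11.1% of all genes tested. The points at 1 place stand highest, at 24.7% and 28.9%, and their 97 genes include 7 that passed the filter on low counts only through cabbage and TO1000.

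None of the 75 candidate genes that the study lists with an identifier was a member, and no member is named there. Of these 75, 30 were counted genes. Members were 0.673% of all counted genes, so nothing is read from their absence among the 30. Among candidates that were not counted genes, ASO (Bo2g165650 and Bo7g118970) and MYB80 (Bo8g091080) had 0 counts in kale. The largest kale count was 1 for XIK (Bo5g027850) and 2 for SOC1 (Bo4g024850) and AGL70 (Bo03856s010). These genes missed the set through counts under 10 in cabbage or TO1000 libraries. Of the 30 counted genes, the lowest in kale had a largest kale count of 3. IGMT1 (Bo2g092680), an indole glucosinolate methyltransferase in Arabidopsis, had 0, 3 and 0 counts in kale, 21 and 37 in cabbage and 18, 11 and 16 in TO1000. AGL12 (Bo6g094120), a MADS-box gene, had 2, 3 and 0 counts in kale, 19 and 28 in cabbage and 19, 24 and 11 in TO1000. Both were picked after their values were seen, and the candidate list was drawn up by the study on these same libraries, so it is not independent evidence.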

How the data were processed

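Unnormalized read counts per gene were deposited by the authors for 8 libraries; per the labels and the study's methods, single-end reads had been trimmed (Cutadapt 2.4) and mapped by 2-pass STAR to TO1000. The genome and annotation came from EnsemblPlants. The strand setting of the counts is not given in the sources used here, so overlapping and antisense genes, and near-identical copies, may share reads. Depth was 3016197 to 7539991 counts on genes per library. Libraries were grouped by their labels. Members were selected on raw counts as deposited, and the members and lists were chosen with earlier results of these data known. CPM values were scaled by TMM in edgeR 4.0.16 (R 4.3.3). Genes passing filterByExpr (minimum count 10, minimum total 15) entered 1 quasi-likelihood model of all libraries, without covariates beside morphotype, and 84378 p-values over 28126 genes and 3 comparisons were adjusted together. The named members were the 10 highest, the 5 most increased and 5 most decreased called genes, both runs with their flanking genes, those closest to each limit, and the 3 most equal between cabbage and TO1000. Chromosomes were read from the identifiers. No sequences are printed, because the identifiers matched none of the gene tables used here. DESeq2 1.42.0, other scaling factors, no filter, thinned counts, other limits, a replicate block and leaving out each library were tried as alternatives. The fits were tested on simulated data.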

Additional observations from a re-analysis of the deposited data

How the results depend on the processing

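The size of the set depended on its limits. With 0 counts allowed in kale it held 37 genes, with 5 allowed 219, with 5 counts required in the others 233 and with 20 required 59. Leaving out a library gave 126 to 186. Each library left out removes a condition of the rule, so numbers of members without a library can only stay or grow. In the same order, members in runs numbered 2, 10, 10 and 0 (4 to 8 without a library, 8 among counted genes). Chromosome 9 held 7, 29 and 7 members with limits of 0, 5 and at least 20 (17 to 22 without a library), and scaffolds held 3, 20 and 4 with limits of 0, at least 5 and at least 20 (12 to 17 without a library). Members within 30 identifiers of another numbered 4, 58, 63 and 7 in that first order, and 23 to 54 without a library. Members called higher in cabbage numbered 13 in the main fit, 4 in a test against a 2-fold change and 10 to 14 without a kale or TO1000 library. Thinned counts gave 8 higher among the 135 genes chosen there. Members called lower numbered 8 in the main fit and 8 to 10 without a kale or TO1000 library. In those fits 14.3% to 18.3% of members were called either way, beside 24.1% to 27.2% of all genes tested. Leaving out a cabbage library leaves a single one, so member calls are not counted there. DESeq2 gave 11 higher and 8 lower (15.1%, beside 23.5% of all genes tested). Neighbours lower in kale than in TO1000 numbered 13 against a 2-fold change (13.4%, beside 6.89% of all genes). With thinned counts they numbered 14 (16.7%, beside 12.1%). Without a kale or TO1000 library 94 to 96 neighbours were tested. Of these, 19 to 24 were lower in kale than in TO1000 (20.2% to 25%, beside 12% to 15.4% of all genes). Those lower than in cabbage numbered 26 to 29 (27.4% to 30.2%, beside 10.6% to 11.5%). Deviations of same-numbered libraries of different morphotypes correlated at -0.115 to 0.196. With 2 or 3 libraries per morphotype, such correlations cannot decide whether the numbers pair the libraries. With a replicate block, 10 members were higher and 9 lower in cabbage (15.1% called, beside 24.2% of all genes tested). With that block 22 of 97 neighbours were lower in kale than in TO1000 (22.7%, beside 13.4%) and 27 lower than in cabbage (27.8%, beside 10.5%). Among the 31 named members, 8 changed their call under at least 1 of 18 alternative fits and none reversed. Bo9g164350 (log2 fold change 1.07) stood below the fold limit at 0.98 with the block, at 0.95 with thinned counts, at 0.84 without cabbage replicate 2 and at 0.94 without TO1000 replicate 3. The neighbour counts under other fits, the omission of the chromosome 1 stretch and the spacing under other limits were added after seeing the data. Depth limits the kale levels, since a member with 0 counts there may still hold up to 0.176 CPM.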

Other observations

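Of the 1361 annotated features whose identifiers do not start with Bo, 14 held at least 10 counts in every cabbage and TO1000 library, and 0 of these 14 met the kale limit of 2 counts. Genes beside those silent only in cabbage, taken by the same limits, were lower in cabbage than in kale in 19.4% of 191 tested cases and lower than in TO1000 in 25.1%, beside 14.7% and 14.8% of all genes tested. Genes beside those silent only in TO1000 were lower in TO1000 than in kale in 16.9% of 71 cases and lower than in cabbage in 9.86%, beside 14.2% and 11.5% of all genes tested. The difference between these shares and those beside members was not tested, and here too genes silent in a morphotype could pass the filter only through the others.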
